A study of Mus musculus with 9 samples.

Results

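The genes described here are 35 interferon-stimulated genes, chosen by name, and their levels were read in sorted mouse bone marrow cells on 9 Affymetrix arrays. A gene was kept where a probe set carried its symbol alone, and its brightest probe set over the 9 arrays stood for it. That left 32 of the 35 among 12393 measured genes. The only probe set naming Isg15 carried several symbols, and Xaf1 and Ifi44 had no probe set with 1 symbol.

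The cells were KSL cells (c-Kit+, Sca-1+, Lin-, IL7Ra-), a sorted bone marrow fraction enriched for blood stem cells and their immediate progeny, from C57BL/6 mice. Control cells came from Runx1floxed/floxed mice without Mx-Cre (MxCre-/-), and Runx1KO cells from Runx1floxed/floxed mice with Mx-Cre (MxCre+/-). Both were sampled 3 months after poly IC, so the controls had received the inducer too. RUNX1(41-214) cells came from mice given cells with a retroviral vector expressing RUNX1(41-214), and were sampled 4 months after transduction and transplantation. Their labels name no poly IC, and each group had 3 biological replicates with 1 array each. None of the 9 arrays was labelled as untreated cells, as cells taken soon after poly IC or as transplanted cells with an empty vector. Differences of RUNX1(41-214) cells from the others therefore cannot be told apart from those of transplantation, transduction or sampling time. The same holds for a difference in poly IC treatment, which is not known for them. Differences of Runx1KO cells from control cannot be told apart from those of the Mx-Cre transgene, which the controls lacked. The Mx-Cre transgene puts Cre under the interferon-inducible Mx1 promoter, and pooling of mice within a replicate is not given in the sources used here.

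Poly IC is a synthetic RNA duplex that cells sense as viral RNA and answer with type I interferon. Interferon binds its receptor, the kinases Jak1 and Tyk2 are activated, and Stat2 and Irf9 act at interferon-stimulated response elements in target promoters. Interferon gamma acts mainly through gamma-activated sites. The products sense viral RNA, cut or edit it, block virus assembly, load antigen or damp the response, and in stem cells interferon is known to bring quiescent cells into cycle.

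Promoter sequences of the members were read to show whether these letters stand near their starts. Each RefSeq promoter (GRCm38.p6) runs from 250 bases before to 50 bases after the transcript start. A core of the response element (GAAA, any 2 bases, GAAA) and the gamma-activated site (TTCNNNGAA) were searched on both strands, and overlaps were allowed. Of the 32 measured members 26 were in the promoter table, and 12 of these (46.2%) held the response element core, against 3.99% of all 27025 genes in the table. TTCNNNGAA stood in 10 of the 26 (38.5%), against 9.55% of all genes, and 4 members (Bst2, Eif2ak2, Igtp and Irgm2) held both. A match is a description of the letters, not of a bound site. The stretches around the matches are shown for members that differed most between groups and for their close relatives, 5′ to 3′ on the gene's strand, with the matched letters in capitals.

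Igtp (chr11:58199491-58199551, + strand): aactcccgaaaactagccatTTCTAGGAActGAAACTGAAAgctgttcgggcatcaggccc
Irgm2 (chr11:58214882-58214942, + strand): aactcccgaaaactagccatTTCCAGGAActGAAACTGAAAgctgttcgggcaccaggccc
Irgm1 (chr11:48871415-48871470, - strand): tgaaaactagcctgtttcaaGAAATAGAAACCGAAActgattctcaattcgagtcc
Bst2 (chr8:71537567-71537628, - strand): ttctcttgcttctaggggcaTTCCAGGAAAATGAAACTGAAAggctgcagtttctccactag
Rsad2 (chr12:26456543-26456592, - strand): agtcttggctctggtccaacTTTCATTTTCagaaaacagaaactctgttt
Ifit1 (chr19:34640765-34640833, + strand): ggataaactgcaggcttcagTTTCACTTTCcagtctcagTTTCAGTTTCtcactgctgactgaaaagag
Ifit3 (chr19:34583353-34583436, + strand): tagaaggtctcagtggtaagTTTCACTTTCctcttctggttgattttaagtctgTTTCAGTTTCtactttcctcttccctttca

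The Igtp and Irgm2 stretches, from neighbouring genes on chromosome 11, were identical at 59 of 61 bases, and both carried the gamma-activated letters just before the response element core. In Bst2 the same pair of motifs overlapped. Both Ifit stretches held the core in pairs, on the opposite strand. Ifi27l2a, which also has a call below, was not in the promoter table, and neither were Mx1, Usp18, Rtp4, Iigp1 and Zbp1. The whole 300-base windows of Ifi209 and Ifi47, members with a call below, held neither set of letters and are shown for that reason.

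Ifi209 (chr1:173630609-173630908, + strand): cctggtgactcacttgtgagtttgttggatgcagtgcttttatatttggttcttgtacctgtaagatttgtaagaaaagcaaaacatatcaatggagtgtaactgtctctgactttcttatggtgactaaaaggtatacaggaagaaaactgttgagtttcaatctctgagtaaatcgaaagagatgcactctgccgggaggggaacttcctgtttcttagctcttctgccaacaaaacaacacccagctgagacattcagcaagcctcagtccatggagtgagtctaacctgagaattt
Ifi47 (chr11:49076337-49076636, + strand): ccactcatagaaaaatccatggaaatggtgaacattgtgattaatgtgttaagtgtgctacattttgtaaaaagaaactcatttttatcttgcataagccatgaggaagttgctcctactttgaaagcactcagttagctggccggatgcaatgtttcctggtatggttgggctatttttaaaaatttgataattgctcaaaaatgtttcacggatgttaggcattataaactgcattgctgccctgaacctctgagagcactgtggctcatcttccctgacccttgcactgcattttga

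Levels are given as quantile-normalized log2(signal + 16), a scale on which changes of dim genes are understated. The members were mostly bright: 24 of 32 lay above the median gene, 14 among the brightest 20% of genes, and their mean levels ran from 6.05 (Mx1) to 12.04 (Ifi47) with a median of 9.79, where the median gene was at 7.95. Ifi47 and Igtp, both immunity-related GTPases that act on pathogen vacuoles, lay at percentiles 98.5 and 92.1 of all genes. Mx1, the antiviral GTPase whose promoter drives the Cre transgene, lay at percentile 33.5. Since 3 against 3 arrays were compared in each case, tests used limma across all genes, with the Benjamini-Hochberg adjusted p called below 0.05. A difference in a sorted population cannot separate fewer expressing cells from less RNA per cell.

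Quality and identity of the arrays were as follows. Correlations between arrays were 0.976 to 0.992 within groups and 0.968 to 0.986 between them. The log2 ratio of 3′ to 5′ Gapdh signal was 1.85 in control replicate 2 and 2.13 in Runx1KO replicate 3, and 0.98 to 1.29 in the other arrays. The 6 measured gate and stem cell genes lay at percentiles 52.4 (Il7r) to 97.8 (Cd34), and Ly6a, the gene of Sca-1, was not measured. They shifted between the groups: in RUNX1(41-214) against control Kit was higher (0.57, limma adjusted p = 0.0415), while Procr (-0.87, adjusted p = 0.00992) and Il7r (-3.69, adjusted p = 0.0015) were lower. Il7r, whose product the gate excludes, was at 8.19 to 10.45 in control, 8.68 to 10.17 in Runx1KO and 5.36 to 5.90 in RUNX1(41-214). The part of these shifts in the member values was not tested. Of the T and NK cell markers 7 of 9, and of the B cell markers 4 of 7, lay below the 30th percentile, but Nkg7 lay at 60.7. The share was smaller in the other lists. It was 1 of 7 for monocyte, 2 of 10 for dendritic cell, 3 of 10 for neutrophil and 1 of 5 for erythroid markers. For stromal and endothelial markers it was 2 of 7, for megakaryocyte and platelet markers 0 of 8, and for mast cell and basophil markers 0 of 6. Runx1 itself was not called in any contrast (log2 fold change 1.05 ± 0.21 (SE) in Runx1KO, limma adjusted p = 0.0740), and the probes may lie outside the deleted part, so this does not check the deletion.

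The first comparison asked whether the interferon-stimulated genes differed after Runx1 deletion, 3 months after poly IC in both groups. None of the 32 members was called in Runx1KO against control cells, where 0.347% of all genes were called in either direction. At an unadjusted limma p under 0.05 stood 3 members (9.38%), Ifi209, Ifi47 and Igtp, all of them higher, where 7.22% of all genes did so in either direction and 3.84% were higher. The median member lay 0.16 above control on the log2 scale, against -0.00 for all genes, with 24 members above and 8 below, where 49.2% of all genes lay above. That median was 0.06 without Runx1KO replicate 2 and 0.24 without Runx1KO replicate 3. For 27 of the 32 the 95% interval of the fold change lay within a factor of 2 in either direction. Arrays did not overlap for 6 members that were higher (Ifi209, Ifi47, Igtp, Iigp1, Irgm1 and Cxcl10), or 18.8% against 5.34% of all genes, and for 1 that was lower, Rtp4, against 5.2%.

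Next, RUNX1(41-214) cells were compared with controls. Of the 32 members 3 rose and 0 fell, 9.38% against 4.28% of all genes called in either direction, 1.73% higher and 2.56% lower: Ifi209, Ifi27l2a and Ifi47. The members were chosen with results of these arrays known, so these calls are not independent of that choice. At an unadjusted p under 0.05 stood 6 members (18.8%), all higher, where 15.5% of all genes did so and 7.32% were higher: Ifit1, Rsad2, Bst2, Ifi27l2a, Ifi209 and Ifi47. The median member lay 0.22 above control, with 25 above and 7 below, where all genes had a median of 0.02 and 52.5% lay above. The interval lay within a factor of 2 for 21 members. Arrays did not overlap for 6 members that were higher (Rsad2, Bst2, Ifi27l2a, Ifi209, Ifi47 and Lgals3bp), 18.8% against 10% of all genes, and for Irf1, which was lower, against 10.2%.

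Compared directly, RUNX1(41-214) and Runx1KO cells differed in 0 of 32 members, where 1.36% of all genes were called and 1.06% were lower. An unadjusted limma p under 0.05 was reached by 5 members: Rsad2, Bst2, Ifi27l2a and Ifi209 were higher and Iigp1 was lower in RUNX1(41-214) cells. These are 15.6% of the members, against 10.6% of all genes in either direction and 4.92% higher. The median member lay at 0.07, with 19 above and 13 below, where 53.0% of all genes lay above. It ran from 0.02 without RUNX1(41-214) replicate 1 to 0.20 without Runx1KO replicate 2, and was 0.17 without RUNX1(41-214) replicate 2 and 0.03 without Runx1KO replicate 3. Arrays did not overlap for 4 members that were higher (12.5% against 9.68% of all genes) and 3 that were lower (9.38% against 9.13%). Both contrasts against control share the 3 control arrays, so their values are set side by side without a test of likeness. Across the 3 groups a moderated F test called 1 member, Ifi209, where 3.4% of all genes were called.

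**Figure D1:**
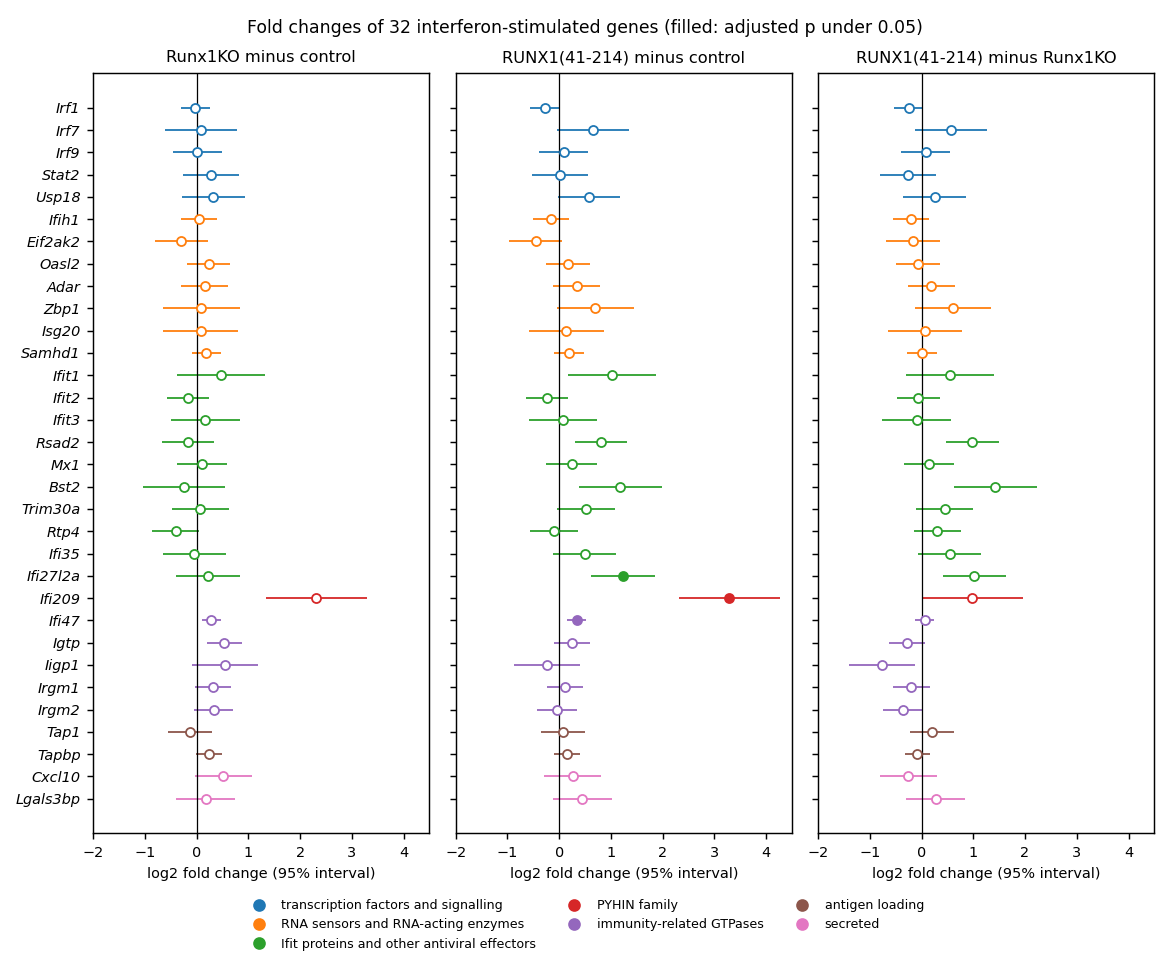
Log2 fold changes of the 32 measured members in the 3 contrasts (x axis, log2 units; points are estimates and bars 95% intervals), with genes on the y axis coloured by role and filled where the adjusted p is under 0.05. Ifi209 lies far from the rest at 2.31 and 3.29 against control, and the filled points are Ifi27l2a, Ifi209 and Ifi47, all in RUNX1(41-214) minus control.

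The transcription factors and signalling genes came first in the pathway, and 0 of 5 were called in any contrast. Irf1, an interferon regulatory factor that mediates much of the gamma response and is among the 5 brightest members, was at 11.64, 11.39 and 11.32 in control arrays, 11.34, 11.66 and 11.28 in Runx1KO and 11.21, 11.14 and 11.18 in RUNX1(41-214). The RUNX1(41-214) arrays lay below all 6 others but within a narrow span. Its fold change was -0.28 ± 0.13 (SE) against control (adjusted p = 0.343) and -0.03 ± 0.13 in Runx1KO (adjusted p = 0.992). Irf7, which amplifies type I interferon production, was at 0.66 ± 0.32 in RUNX1(41-214) and 0.08 ± 0.32 in Runx1KO cells. Usp18, the protease that removes Isg15 and blocks the interferon receptor, was at 0.58 ± 0.28 and 0.32 ± 0.28 in the same order. Irf9 and Stat2, the partners in the type I transcription complex, lay between 0.01 and 0.28 in both contrasts.

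Among the RNA sensors and enzymes 0 of 7 were called, and their fold changes against control ran from -0.29 to 0.23 in Runx1KO and from -0.46 to 0.70 in RUNX1(41-214). Samhd1, which breaks down nucleotides needed for reverse transcription, was at 11.23, 10.96 and 11.31 in control, 11.28, 11.25 and 11.54 in Runx1KO and 11.45, 11.38 and 11.24 in RUNX1(41-214). All 3 groups overlapped in this probe set, and the fold change was 0.19 ± 0.13 in both contrasts against control. Dimmer Samhd1 probe sets were at 0.45, 0.43 and 0.09 in Runx1KO and 0.48, 0.38 and 0.21 in RUNX1(41-214), none called. In the brightest of these the RUNX1(41-214) arrays (10.36 to 10.41) lay above the control arrays (9.67 to 10.21). Eif2ak2, the kinase PKR that stops translation on viral RNA, was the lowest in both (-0.29 ± 0.24 in Runx1KO and -0.46 ± 0.24 in RUNX1(41-214)). Oasl2, a relative of the 2′-5′ oligoadenylate synthetases, was the highest in Runx1KO (0.23 ± 0.19), and Zbp1, a sensor of Z-form nucleic acid, in RUNX1(41-214) (0.70 ± 0.34). The dimmer Eif2ak2 probe set was at 0.03 in Runx1KO and -0.07 in RUNX1(41-214), and the dimmer Zbp1 probe set at 0.13 and 0.10. Ifih1, the sensor MDA5 that detects long poly IC, was at 0.05 ± 0.16 in Runx1KO and -0.16 ± 0.16 in RUNX1(41-214). Adar, which edits RNA duplexes, stood at 0.15 ± 0.21 and 0.34 ± 0.21 in that order.

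Among roles with more than 1 measured gene, the antiviral effectors had the highest median in RUNX1(41-214) cells. That median fold change was 0.50 in RUNX1(41-214) and 0.01 in Runx1KO cells against control, over 10 measured genes, of which 1 rose in RUNX1(41-214). Ifi27l2a, a small mitochondrial membrane protein gene, was at 5.91, 5.65 and 5.55 in control, 6.35, 5.69 and 5.71 in Runx1KO and 7.50, 6.44 and 6.88 in RUNX1(41-214). Each RUNX1(41-214) array lay above every other array, by the least margin for replicate 2. It rose by 1.23 ± 0.28 (adjusted p = 0.0291, a fold of 2.35 on this scale) against control. Runx1KO cells were at 0.21 ± 0.28 (adjusted p = 0.943), and the direct contrast gave 1.02 ± 0.28 (adjusted p = 0.145). Its call was lost without control replicate 1, 2 or 3, or without RUNX1(41-214) replicate 1 or 3 (adjusted p up to 0.117, fold change from 0.95). The same held without both arrays of high 3′ to 5′ Gapdh ratio (adjusted p = 0.0675) and with only the 6 arrays fitted (adjusted p = 0.0501). The gene is dim, at percentile 34.7.

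Bst2 encodes tetherin, which holds budding virus at the cell surface and also marks plasmacytoid dendritic cells. It was at 7.67, 7.38 and 7.28 in control, 7.70, 7.74 and 6.17 in Runx1KO and 8.70, 8.41 and 8.77 in RUNX1(41-214). All RUNX1(41-214) arrays lay above all others, and Runx1KO replicate 3, the array with the highest 3′ to 5′ ratio, lay far below its group. The fold change was 1.18 ± 0.37 against control (adjusted p = 0.115) and 1.42 ± 0.37 against Runx1KO (adjusted p = 0.108). Without Runx1KO replicate 3, whose value widens the common spread, the difference from control passed (1.18, adjusted p = 0.00902), and it also passed in a fit of the 6 arrays alone (adjusted p = 0.0196). Under 17 of the 20 alternatives it stayed uncalled (adjusted p up to 0.304).

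Rsad2, the gene of viperin, which makes a chain-terminating nucleotide, was at 9.99, 9.58 and 9.99 in control, 9.19, 9.99 and 9.86 in Runx1KO and 10.95, 10.43 and 10.61 in RUNX1(41-214). Here too no RUNX1(41-214) array overlapped the others. The fold changes were 0.81 ± 0.23 against control (adjusted p = 0.0851) and 0.98 ± 0.23 against Runx1KO (adjusted p = 0.0720), and the latter passed with array weights (1.19, adjusted p = 0.0101). Under 19 of the 20 alternatives that contrast stayed uncalled (adjusted p up to 0.306). The dimmer Rsad2 probe sets were at 0.77 and 0.66 against control, neither called. Trim30a, a ring finger protein that restrains innate signalling and is among the 5 brightest members, was at 11.42, 10.39 and 11.11 in control, 10.66, 11.34 and 11.13 in Runx1KO and 11.65, 11.64 and 11.17 in RUNX1(41-214). The groups overlapped (0.52 ± 0.25 against control, adjusted p = 0.372). The other Trim30a probe set, nearly as bright, was at 0.17 in RUNX1(41-214) and 0.26 in Runx1KO against control, neither called. In that probe set the Runx1KO arrays (11.20 to 11.25) lay above the control arrays (10.86 to 11.13).

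The Ifit genes, whose products bind foreign RNA ends, did not share a direction. Ifit1 was at 1.02 ± 0.39 in RUNX1(41-214) against control (adjusted p = 0.214), with its arrays at 9.69, 8.68 and 7.89, the widest spread of any member within that group. Ifit2 (-0.24 ± 0.19) and Ifit3 (0.07 ± 0.30), from the same chromosome 19, were not called either. Mx1 was at 0.24 ± 0.22 in RUNX1(41-214) and 0.10 ± 0.22 in Runx1KO cells, and Rtp4 at -0.10 ± 0.21 and -0.41 ± 0.21.

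**Figure D2:**
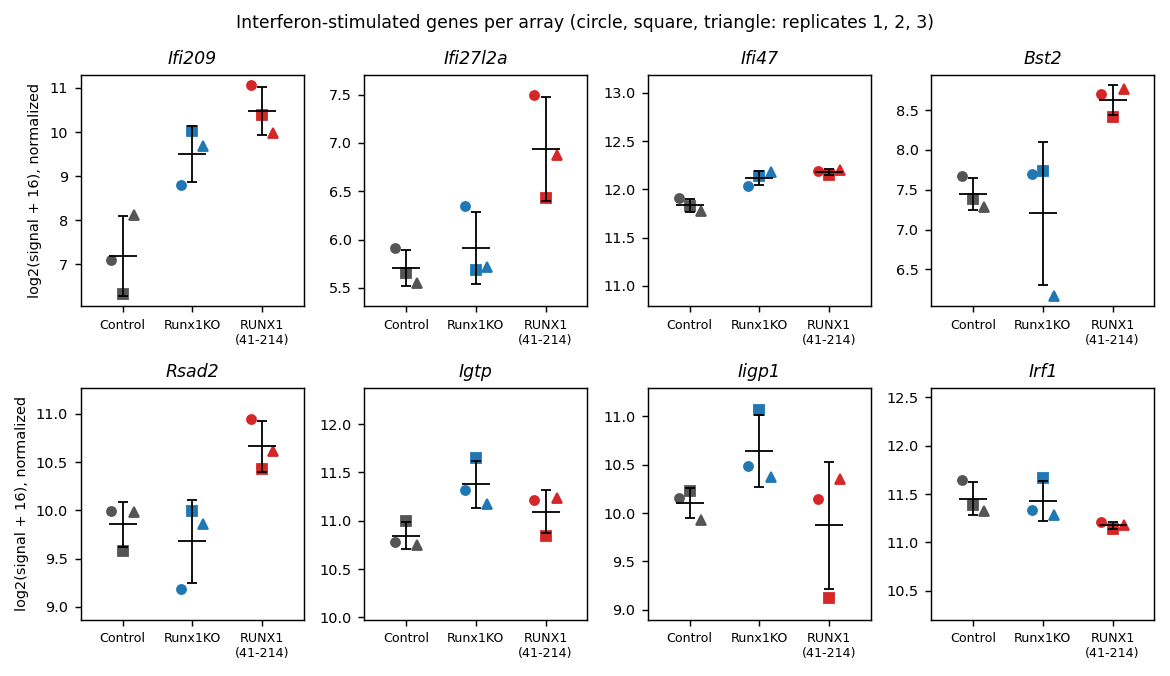
Level of 8 members in each array (y axis, normalized log2(signal + 16), not starting at 0; x axis, group), with points for the 3 replicates and bars for the mean ± SD (n = 3). Ifi209 is lowest in the control arrays, Ifi27l2a, Bst2 and Rsad2 are highest in all RUNX1(41-214) arrays, Igtp is highest in Runx1KO, and Bst2 in Runx1KO replicate 3 stands at 6.17.

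Ifi209 differed most of all members. It belongs to the PYHIN family on chromosome 1, whose proteins bind DNA and include inflammasome and transcriptional regulators. It was at 7.11, 6.33 and 8.12 in control, 8.79, 10.01 and 9.68 in Runx1KO and 11.06, 10.38 and 9.99 in RUNX1(41-214). Every control array lay below every other array, while the Runx1KO and RUNX1(41-214) arrays overlapped. In RUNX1(41-214) cells it rose by 3.29 ± 0.45 (adjusted p = 0.00137), a fold of 9.80 on this scale, and this call held under each of the 20 alternatives run (fold change 2.46 to 3.76, adjusted p up to 0.0105). In Runx1KO cells it was at 2.31 ± 0.45 (adjusted p = 0.0580, 95% interval 1.33 to 3.29), not called, and the direct contrast gave 0.98 ± 0.45 (adjusted p = 0.468). The Runx1KO difference passed without control replicate 3 (2.78, adjusted p = 0.0373) and without dim genes (adjusted p = 0.0344). Under 18 of the 20 alternatives it stayed uncalled (adjusted p up to 0.270). The other Ifi209 probe set, dimmer, was at 1.58 ± 0.48 in Runx1KO and 1.63 ± 0.48 in RUNX1(41-214) against control and was not called in the test over all probe sets (adjusted p = 0.372 and 0.112). Probe sequences were not used here, so signal shared among family members was not tested. Other PYHIN genes, chosen after their values were seen, were at -0.03 ± 0.14 and 0.00 ± 0.14 (Mndal), 0.11 ± 0.24 and 0.20 ± 0.24 (Aim2), 0.15 ± 0.18 and 0.23 ± 0.18 (Ifi204) and -0.09 ± 0.50 and -1.33 ± 0.50 (Ifi202b) in Runx1KO and RUNX1(41-214) against control, and none was called.

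The immunity-related GTPases are driven mainly by interferon gamma. All 5 lay above control in Runx1KO, by 0.28 to 0.54, with arrays that did not overlap for 4 of them (5.34% of all genes), and none was called. In RUNX1(41-214) 3 lay above and 2 below control, and 1 was called. Ifi47 was at 11.91, 11.82 and 11.77 in control, 12.04, 12.14 and 12.18 in Runx1KO and 12.19, 12.14 and 12.20 in RUNX1(41-214), so that all control arrays lay below all others by a small step. It rose by 0.34 ± 0.08 in RUNX1(41-214) (adjusted p = 0.0414, a fold of 1.27), and Runx1KO cells were at 0.28 ± 0.08 (adjusted p = 0.276). This call was lost under 12 of 20 alternatives, among them the fit without a variance trend (adjusted p = 0.196) and that of the 6 arrays alone (adjusted p = 0.0698). It was lost too without control replicate 1, 2 or 3, without RUNX1(41-214) replicate 1, 2 or 3 and without Runx1KO replicate 1 or 2 (fold change 0.31 to 0.38, adjusted p from 0.0531 to 0.166).

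Igtp, the gene of Irgm3, was at 10.78, 11 and 10.75 in control, 11.31, 11.65 and 11.17 in Runx1KO and 11.21, 10.84 and 11.23 in RUNX1(41-214). Runx1KO arrays lay above all controls (0.54 ± 0.16, adjusted p = 0.276), and RUNX1(41-214) arrays overlapped both groups. Its neighbour Irgm2, whose promoter stretch is nearly the same, was at 0.33 ± 0.17 in Runx1KO and -0.04 ± 0.17 in RUNX1(41-214), and Irgm1 at 0.32 ± 0.16 and 0.12 ± 0.16. Iigp1 was at 10.15, 10.23 and 9.93 in control, 10.48, 11.07 and 10.37 in Runx1KO and 10.14, 9.12 and 10.35 in RUNX1(41-214). The RUNX1(41-214) arrays lay below the Runx1KO arrays, replicate 2 by the most, with a direct contrast of -0.77 ± 0.29 (adjusted p = 0.344). The dimmer Iigp1 probe set gave -0.30 for that contrast. Against control it lay at 0.32 in RUNX1(41-214), where the brighter probe set lay at -0.23, so the direction depended on the probe set.

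The remaining roles held 4 measured genes, and 0 were called. Tapbp encodes tapasin, which loads peptides onto MHC class I. It was at 11.54, 11.47 and 11.33 in control, 11.51, 11.80 and 11.75 in Runx1KO and 11.60, 11.69 and 11.52 in RUNX1(41-214), and the groups overlapped. The dimmer Tapbp probe set was at 0.74 in Runx1KO and 1.12 in RUNX1(41-214) against control, neither called. There the RUNX1(41-214) arrays (8.16 to 8.57) lay above the control arrays (6.69 to 8.03). Tap1, the peptide transporter chain, was at -0.13 ± 0.19 in Runx1KO and 0.08 ± 0.19 in RUNX1(41-214). Of the secreted products, the chemokine Cxcl10 was at 0.52 ± 0.25 and 0.26 ± 0.25 and the galectin ligand Lgals3bp at 0.17 ± 0.26 and 0.45 ± 0.26, in the same order. Cxcl10 was dim in all arrays, from 6.02 to 6.96.

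**Figure D3:**
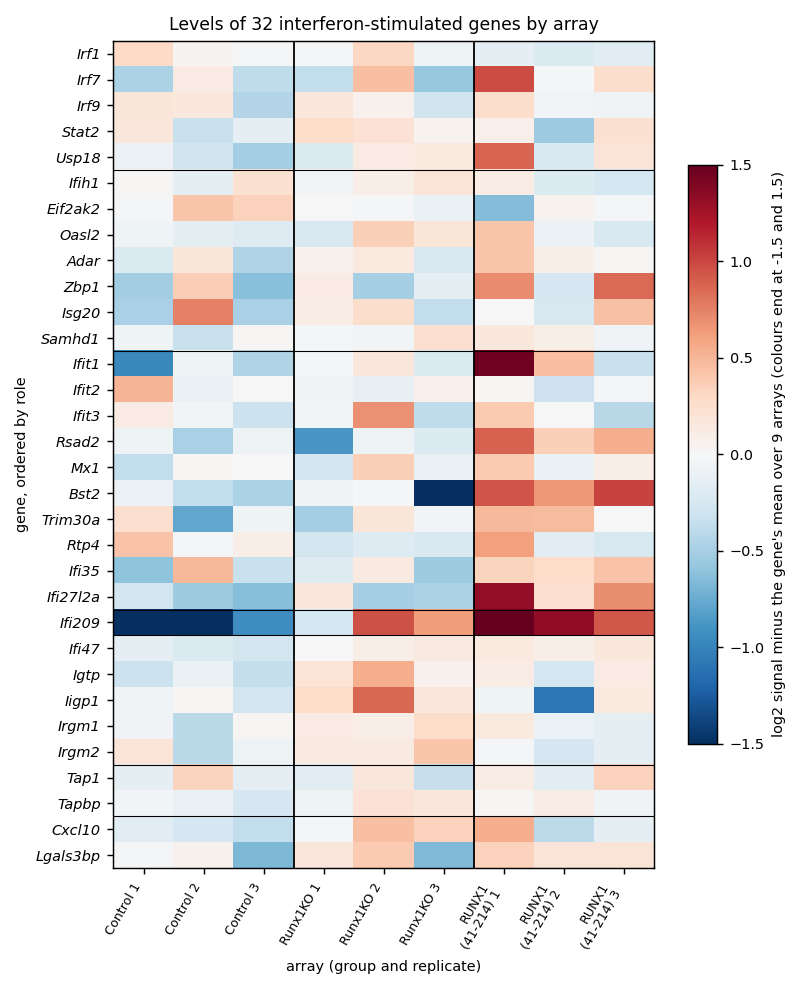
Each row is a member and each column an array, coloured by the log2 signal minus the gene's mean over the 9 arrays (red higher, blue lower, colours ending at -1.5 and 1.5), with lines between groups and roles. Ifi209 is low across the control arrays, Rsad2, Bst2 and Ifi27l2a are high across RUNX1(41-214), and RUNX1(41-214) replicate 1 is the highest array for 13 members.

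The members also varied within groups. Their median SD was 0.23 in control, 0.25 in Runx1KO and 0.26 in RUNX1(41-214), against 0.24, 0.22 and 0.17 for all genes. RUNX1(41-214) replicate 1 was the highest of the 9 arrays for 13 members, among them Irf7, Usp18, Oasl2, Ifit1, Rsad2 and Ifi27l2a, and the highest of its group for 21 of 32. Over all genes that array was highest of its group for 33.6%. The median member there lay 0.34 above its 9-array mean, and in replicates 2 and 3 it lay at -0.06 and 0.06. In the control group replicate 3 was the lowest array for 16 members, and its median member was at -0.28. Without RUNX1(41-214) replicate 1 Ifi209 was the only member called against control.

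Neutrophil markers also varied between the arrays of a group. Of 10, 7 were highest of their group in RUNX1(41-214) replicate 1, 6 in control replicate 1 and 8 in Runx1KO replicate 1, including S100a8, S100a9, Ltf, Ngp and Camp in all 3. Of the members, 16 were highest of their group in control replicate 1, 21 in RUNX1(41-214) replicate 1 and 5 in Runx1KO replicate 1. Over all genes these arrays were highest of their group for 30.4%, 33.6% and 24.5%. Runx1KO replicate 1 was the lowest of its group for 12 members and Runx1KO replicate 3 for 15. Control replicate 3 had the highest neutrophil sum of the controls, with Mpo, Prtn3 and Ctsg highest there. S100a8 and Ngp were at 4.77 and 5.18 in that array, and at 8.83 and 10.17 in control replicate 1. The summed neutrophil signal ran from 9906 to 15825 in control, 11157 to 15818 in Runx1KO and 13913 to 16535 in RUNX1(41-214). Dendritic cell markers, among them the gate gene Flt3, summed to 8888 to 9944 in control, 9732 to 13647 in Runx1KO and 6075 to 8306 in RUNX1(41-214). In the last group 2 of 10, Itgax (-1.39) and Cd74 (-0.93), were called lower against control. Tcf4 (-0.28), Irf8 (-0.49) and Ly6d (-0.92) were not called there, and H2-Ab1 (0.17) and Cd209d (0.16) lay above control. Megakaryocyte and platelet markers ran from 3811 to 5259, 7549 to 8354 and 11931 to 14289 in control, Runx1KO and RUNX1(41-214). Mast cell and basophil markers ran from 4106 to 4810, 6886 to 8335 and 8700 to 9927, in the same order. Of these, 1 of 6 was called higher in Runx1KO against control and 3 of 6 in RUNX1(41-214), but the list did not share a direction. Cpa3 was at 3.04 in Runx1KO and 3.77 in RUNX1(41-214), and Gata2 at 0.17 and 0.07. Mcpt8 (-0.87 and -0.56) and Fcer1a (-0.88 and -1.29) lay below control, not called. T and NK cell markers summed to 1165 to 1461, 490 to 1071 and 283 to 435 in control, Runx1KO and RUNX1(41-214). Against control 3 of 9 were called lower in RUNX1(41-214) and 1 of 9, Gzmb, in Runx1KO. In RUNX1(41-214) against control 2 of 7 monocyte markers (Ccr2 and Mpeg1) and 1 of 7 B cell markers (Vpreb1) were called lower. There 2 of 5 erythroid markers (Alas2 and Slc4a1) and 1 of 10 neutrophil markers (Csf3r) were called higher. The part of these cells in the member values was not tested.

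**Figure D4:**
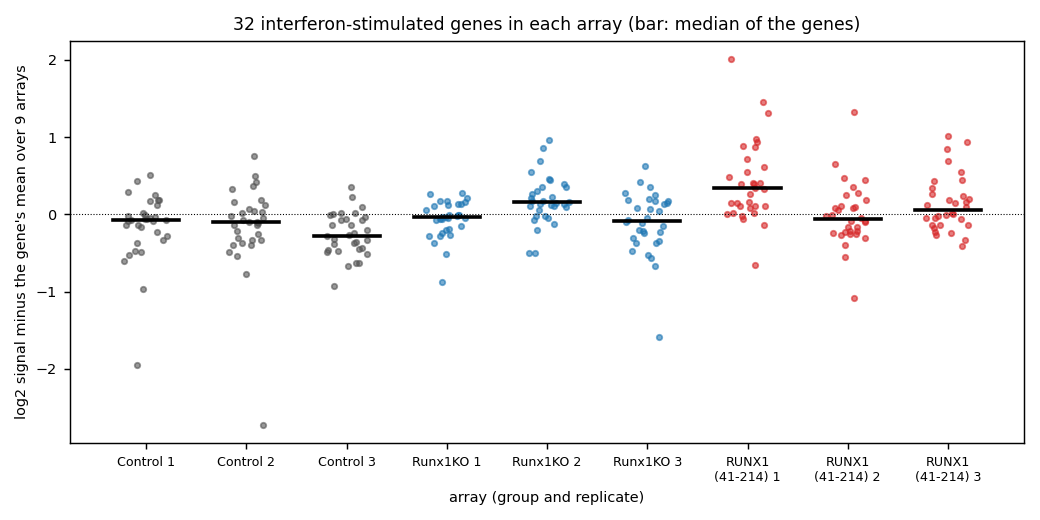
The 32 members in each array (x axis, group and replicate) as log2 signal minus the gene's mean over the 9 arrays (y axis), 1 point a gene, with a bar at the median. RUNX1(41-214) replicate 1 has the highest median at 0.34 and control replicate 3 the lowest at -0.28.

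Further genes of the pathway were read from 5 lists, chosen with earlier results of these data known, with 102 of 135 genes measured, members left out. In Runx1KO against control 0 of 102 were called, where 0.347% of all genes were. In RUNX1(41-214) against control 1 rose and 1 fell, a smaller share than the 4.28% of all genes. In RUNX1(41-214) against Runx1KO 2 were lower and 0 higher, where 1.36% of all genes were called. The 9 measured interferon ligand genes all lay below the 30th percentile of level, and 0 were called. Of 9 receptor and kinase genes 0 were called, with medians of 0.28 in Runx1KO and 0.32 in RUNX1(41-214). As examples chosen after their values were seen, Ifnar1, the signalling chain of the type I receptor, was at 0.05 ± 0.26 and -0.22 ± 0.26, and Jak1 at 0.47 ± 0.20 and 0.34 ± 0.20. Among 13 sensors and other regulatory factors, and among 7 negative regulators, 0 were called in any contrast.

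The calls fell among 64 other interferon-stimulated genes. Plscr1, a phospholipid scramblase with antiviral action, was at 10.38, 10.04 and 9.56 in control, 10.51, 10.72 and 10.54 in Runx1KO and 10.92, 10.89 and 10.78 in RUNX1(41-214). The 3 groups did not overlap, and it rose by 0.87 ± 0.19 in RUNX1(41-214) (adjusted p = 0.0233). That call was lost without control replicate 3, without RUNX1(41-214) replicate 1, 2 or 3 and in the fit of the 6 arrays alone (adjusted p up to 0.109). Gbp6, a guanylate-binding protein of the gamma response, was at 9.05, 9.43 and 9.59 in control, 9.40, 9.65 and 10.24 in Runx1KO and 8.03, 6.05 and 7.63 in RUNX1(41-214). It was lower in RUNX1(41-214) than in control (-2.12 ± 0.43, adjusted p = 0.0145) and than in Runx1KO (-2.52 ± 0.43, adjusted p = 0.0127). The first call was lost without control replicate 3 (adjusted p = 0.0697), and the second without Runx1KO replicate 2 or 3 (adjusted p = 0.0581 and 0.0536) or without both arrays of high 3′ to 5′ ratio (adjusted p = 0.0689). Cxcl9, a gamma-induced chemokine that was dim throughout (4.35 to 5.36), was lower in RUNX1(41-214) than in Runx1KO (-0.82 ± 0.14, adjusted p = 0.0123). The size depends on the offset added to the signal, at -1.83 with an offset of 1 and -0.38 with an offset of 50. That call was lost without RUNX1(41-214) replicate 1 or 2 or Runx1KO replicate 1 or 2 (adjusted p up to 0.0654).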

How the data were processed

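Signal intensity per probe set was measured on 9 Affymetrix arrays after two-cycle biotin labelling, per the labels' protocols. The deposited intensity values are linear (0.53 to 20215), no source used here names the authors' summarisation or scaling, and array medians ran from 125 to 147. Of 22690 probe sets 64 controls were set aside, 20380 carried 1 gene symbol, 691 several and 1555 none. Values were converted to log2(signal + 16) and quantile normalized, and the brightest probe set stood for each of 12393 genes, with no filter on low signal. In R 4.3.3, limma 3.58.1 estimated the 3 group means over the 9 arrays (eBayes with a variance trend), two-sided, adjusted by Benjamini-Hochberg over all genes. On simulated data for RUNX1(41-214) minus control over 12393 genes, it recovered 16.4% of genes changed by a fold of 1.5, 52.2% by a fold of 2 and 92.4% by a fold of 4.

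The number of arrays limits the precision (median standard error 0.20 over all genes in Runx1KO minus control), and the labels call replicates biological without naming separate mice, so p-values measure the spread between these samples. The members, lists and tests were chosen with earlier results of these data known. Values in every array are given for members called in any test, for the 5 brightest, for any spanning more than 2 within a group and for the 3 largest fold changes in each contrast. Other pathway genes are named where called. Offsets of 1 and 50, no quantile normalization, all probe sets or their mean, no variance trend, array weights, a dim-gene filter at the 30th percentile, 6-array fits, the replicate block and fits without single arrays were tried.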

Additional observations from a re-analysis of the deposited data

How the results depend on the processing

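Ifi209 in RUNX1(41-214) against control kept its call under all 20 alternatives, and none of the 24 results recomputed (counts, medians and fold changes of Ifi209, Ifi27l2a, Ifi47, Bst2, Rsad2, Igtp, Iigp1, Plscr1, Gbp6 and Cxcl9) reversed. Fold changes of other genes were not recomputed. The median member fold change moved by less than the spread between arrays throughout, from 0.06 to 0.24 in Runx1KO, 0.15 to 0.33 in RUNX1(41-214) and 0.02 to 0.20 between them. Members called in Runx1KO numbered 1 without dim genes, and 0 to 1 with single arrays left out. In RUNX1(41-214) they numbered 1 to 4 with single arrays left out, 1 without control replicate 1, 2 or 3 or without RUNX1(41-214) replicate 1 or 3. Against Runx1KO there was 1 with array weights and 1 with the replicate number as a block (Ifi27l2a, adjusted p = 0.0391). In the F test there were 3 with array weights, 2 with the replicate block, 2 without dim genes, 2 without both arrays of high 3′ to 5′ ratio and 1 to 2 with single arrays left out. Other pathway genes called in Runx1KO numbered 2 without both those arrays, Trim34a and Trim12a. For both genes the arrays left out were the lowest control and the highest Runx1KO array. Trim34a was at 9.61, 6.23 and 9.28 in control and 6.54, 6.17 and 9.04 in Runx1KO. In the main test Trim34a and Trim12a lay at -1.13 and -0.83 in Runx1KO against control, not called. They lay at 3.05 and 2.84 in RUNX1(41-214) against Runx1KO, not called there either. In RUNX1(41-214) the other pathway genes called numbered 4 with array weights, 5 with the replicate block, 10 without both those arrays, 4 without dim genes and 0 to 4 with single arrays left out. Against Runx1KO they numbered 7 with array weights, 4 with the replicate block, 4 without both those arrays and 0 to 6 with single arrays left out. The cause of these shifts was not tested.

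Deviations of same-numbered control and Runx1KO arrays correlated at 0.03, 0.41 and 0.42 for replicates 1, 2 and 3. In pairs with a RUNX1(41-214) array the correlations ran from -0.17 to 0.20. Whether same-numbered samples belong together was not tested. With the block 2 members were called in RUNX1(41-214) against control, and Ifi47 was not (adjusted p = 0.0627).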
